A study of Homo sapiens and Pan troglodytes with 11 samples.

Results

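DAZL, PLCL2 and TBC1D5 are 3 neighbouring genes on chromosome 3 that were read out in neurons of human and chimpanzee origin. They were taken by name from the gene columns of the deposited tables and make up 3 of the 24 genes of the series. They appear in 4 of the 11 libraries, whose gene panel held 21 genes. The series asks what human accelerated regions, conserved stretches of DNA that changed quickly on the human lineage, do in excitatory neurons grown for 2 weeks from induced pluripotent stem cells. Human neurons came from WTC11, an established human line, and chimpanzee neurons from C3649. Transcripts were counted by HyPR-seq, in which pooled probes are hybridised to fixed cells, ligated and amplified in droplets so that each cell gives counts of unique molecular identifiers (UMIs). All libraries were under CRISPR interference, in which guide RNAs bring a repressor on an inactive Cas9 to their sites, and no library without it was among those used. The 4 libraries, called human 4, human 5, chimpanzee 3 and chimpanzee 4, all came from screen replicate 2. Each species is 1 cell line, so species and line cannot be told apart. Whether libraries of a line came from separate cultures is not stated in the labels, so p-values measure only the spread between libraries, which may be technical.

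The 3 genes do unrelated work in the cell. DAZL is an RNA-binding protein of germ cells, where it controls translation of messages needed for gametes, and in most somatic cells its promoter is methylated and the gene is silent. PLCL2 is a phospholipase C-like protein that lacks catalytic activity and binds inositol phosphates, and the family is known for its part in the trafficking of GABA-A receptors in neurons. TBC1D5 is a GTPase-activating protein for Rab7 that binds the retromer, the complex that returns cargo from endosomes, and it also acts in autophagy.

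On GRCh38, the build of the files, with GENCODE v29 annotation, DAZL (ENSG00000092345.13) lies at chr3:16586792-16670306 on the minus strand. PLCL2 (ENSG00000154822.17) follows at chr3:16802651-17090594 on the plus strand. TBC1D5 (ENSG00000131374.14) lies at chr3:17157162-18444817 on the minus strand. The gap is 132 kb between DAZL and PLCL2 and 66.6 kb between PLCL2 and TBC1D5, with 0 protein-coding genes in either. In the annotation, 1 other protein-coding gene overlaps TBC1D5 and 1 antisense gene overlaps PLCL2. Where on these transcripts the probes lie was not analysed here, so UMIs of the overlapping genes cannot be separated by position, and UMIs of different genes are not compared as transcript levels.

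A promoter of each gene is shown because methylation of CG dinucleotides is the known somatic lock on DAZL, and the 3 neighbours can be compared for how many CG they hold. Methylation was not measured here. Each sequence is from RefSeq (GRCh38.p14), runs 5′ to 3′ on the gene's own strand from 250 bases before to 50 bases after the annotated start, and has every CG in capitals. RefSeq lists 2 promoters for each gene, and the one at the 5′ end of the RefSeq gene is shown. The GENCODE spans above begin further upstream, by 64.9 kb for DAZL, 82.3 kb for PLCL2 and 702 kb for TBC1D5, and which start is used in these neurons was not measured. The positions are chr3:16605374-16605673 (minus) for DAZL, chr3:16884705-16885004 (plus) for PLCL2 and chr3:17742582-17742881 (minus) for TBC1D5.
DAZL: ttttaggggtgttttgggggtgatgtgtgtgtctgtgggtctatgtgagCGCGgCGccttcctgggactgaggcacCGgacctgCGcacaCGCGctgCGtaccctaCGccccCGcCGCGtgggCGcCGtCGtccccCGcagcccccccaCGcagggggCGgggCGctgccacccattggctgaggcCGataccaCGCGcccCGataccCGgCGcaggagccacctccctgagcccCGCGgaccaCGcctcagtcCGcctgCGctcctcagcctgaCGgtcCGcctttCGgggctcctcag
PLCL2: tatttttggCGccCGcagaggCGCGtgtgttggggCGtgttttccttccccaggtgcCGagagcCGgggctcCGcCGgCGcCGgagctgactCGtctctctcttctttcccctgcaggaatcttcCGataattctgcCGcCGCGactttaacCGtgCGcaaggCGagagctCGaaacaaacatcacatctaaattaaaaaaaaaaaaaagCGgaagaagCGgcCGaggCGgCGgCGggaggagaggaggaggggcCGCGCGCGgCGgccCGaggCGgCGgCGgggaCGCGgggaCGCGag
TBC1D5: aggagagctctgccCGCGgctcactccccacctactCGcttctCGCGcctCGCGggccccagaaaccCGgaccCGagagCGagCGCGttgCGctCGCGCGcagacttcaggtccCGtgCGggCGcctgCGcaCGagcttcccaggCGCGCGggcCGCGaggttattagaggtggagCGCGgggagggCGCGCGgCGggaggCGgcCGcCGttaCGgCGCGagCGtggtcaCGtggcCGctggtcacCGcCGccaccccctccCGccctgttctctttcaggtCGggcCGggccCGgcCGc
The DAZL promoter held 33 CG, the PLCL2 promoter 39 and the TBC1D5 promoter 48, against a median of 14 over 35116 promoters of 300 bases in the same table. Of those promoters, 96.0% held at least 1 CG, and 82.8%, 91.3% and 98.0% held fewer than DAZL, PLCL2 and TBC1D5. The motif CG reads the same on both strands. The other RefSeq promoter held 29 CG for DAZL, 3 for PLCL2 and 1 for TBC1D5, so the order of the genes by CG depends on which start is taken.

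In human 4, 1712 of 3825 cells (44.8%) had GAPDH above 80% of their gene UMIs, against 9, 2 and 7 cells in human 5, chimpanzee 3 and chimpanzee 4. These cells were left out by the rule that defines the comparison, which kept 16969 of 18699 cells, 6725 human and 10244 chimpanzee. Levels are given per 1000 gene UMIs outside GAPDH, of which the libraries held 226091 to 793608, with medians per cell of 101, 86, 111 and 98 in human 4, human 5, chimpanzee 3 and chimpanzee 4. Libraries also shared cell barcodes. Human 4 shared 1060 with human 5 and 1003 with chimpanzee 3, human 5 shared 995 with chimpanzee 3, and 880 were in all of these. Chimpanzee 4 shared 1436 with chimpanzee 5, which has another gene panel, and 234 with human 6. Between 14.1% and 32.6% of the kept cells of a library had a barcode found in another library. In human 4 the share was 51.9% among the cells left out and 14.1% among those kept. The source of the shared barcodes was not tested. Levels, the species test, neighbour ratios, detection, spread, the correlations of most named pairs, the sorted splits and the guide fits were also computed without them. Of 16 defining markers of excitatory neurons, glia, pluripotent cells and progenitors looked for, 0 were on the panel, so the neuronal label could not be checked and the libraries hold no labelled second cell type to set a background level.

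DAZL gave few UMIs in every library, and more in both human libraries than in both chimpanzee libraries. Its level was 5.08 UMIs per 1000 in human 4 (1149 UMIs), 4.62 in human 5 (2110 UMIs), 2.27 in chimpanzee 3 (1800 UMIs) and 2.69 in chimpanzee 4 (1370 UMIs). The groups did not overlap, and the lower human library stood well above the higher chimpanzee one. DAZL was the lowest of the 20 genes outside GAPDH in all 4 libraries. Species means were 4.85 ± 0.328 (SD, n = 2) in human and 2.48 ± 0.298 (SD, n = 2) in chimpanzee neurons. Without shared barcodes the levels were 5.08, 4.52, 2.31 and 2.64.

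PLCL2 was nearly constant within a species. It stood at 15.9 per 1000 in human 4, 16.0 in human 5, 13.2 in chimpanzee 3 and 13.3 in chimpanzee 4, from 3591 to 10499 UMIs. TBC1D5 stood at 28.5, 29.2, 24.7 and 25.6 per 1000 in the same order, from 6433 to 19612 UMIs. As shares, both genes were thus higher in both human libraries, but this direction is not stable, since it turned under the TMM scaling used for the test below. All 3 genes had shares that were higher in both human libraries, as did 70% of the 20 genes, while 30% were lower in both, so the count of members is near the background.

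**Figure D1:**
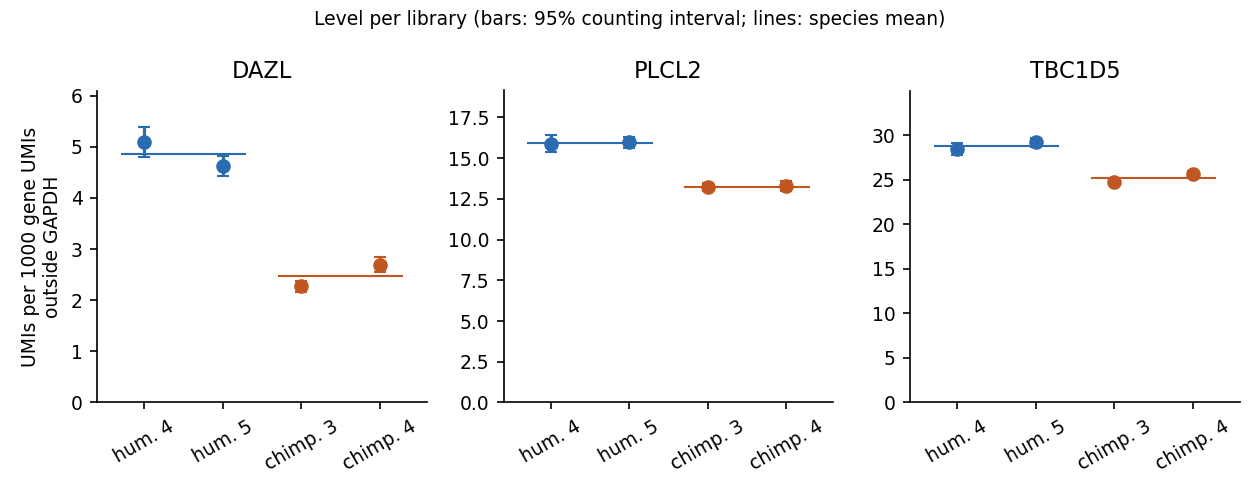
Level of each gene in UMIs per 1000 gene UMIs outside GAPDH (vertical axes, each from 0) in the 4 libraries, with 95% counting intervals as bars and the species mean as a line. DAZL runs from 2.27 to 5.08 and PLCL2 from 13.2 to 16.0, while TBC1D5 runs from 24.7 to 29.2; the PLCL2 and TBC1D5 directions turn under TMM scaling.

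Whether the species differ beyond the spread between libraries was tested with edgeR's quasi-likelihood test on summed counts, scaled by TMM, with Benjamini-Hochberg adjustment over the 20 genes. DAZL was higher in human by 0.62 ± 0.12 on the log2 scale (edgeR adjusted p = 0.00151). PLCL2 had a log2 ratio of -0.09 ± 0.07 (edgeR adjusted p = 0.282) and TBC1D5 one of -0.15 ± 0.07 (edgeR adjusted p = 0.0615), so neither passed the threshold of 0.05. Thus 1 of the 3 genes passed, while 75% of the 20 genes did, 35% higher and 40% lower in human. By the size of the ratio in either direction, from the largest, DAZL ranked 12 of 20, TBC1D5 16 and PLCL2 18. The DAZL call was lost with either human library left out (0.57 and edgeR adjusted p = 0.128 without human 4, 0.67 and adjusted p = 0.0931 without human 5). With a human library left out, the remaining one is assumed to vary like the chimpanzee pair, which supplies all the spread. Under that assumption TBC1D5 passed as lower in human without human 5 (-0.19, edgeR adjusted p = 0.0263), and it also passed with the GAPDH-rich cells kept (-0.15, adjusted p = 0.0432). DESeq2 also called 15 of the 20 genes, with DAZL at 0.72, PLCL2 at 0.012 and TBC1D5 at -0.05.

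The scaling moved all genes together. The median log2 ratio of the 20 genes was -0.08 with TMM, 0.27 per total UMIs outside GAPDH, 0.40 per total with GAPDH and 0.53 per GAPDH UMI. DAZL went from 0.62 with TMM to 0.97, 1.09 and 1.22 under the other 3, and it passed as higher in human under all of them. PLCL2 went from -0.09 to 0.53 and TBC1D5 from -0.15 to 0.46, and both passed as higher in human under the last 3 of these scalings. With totals, 12 genes were called higher and 5 lower in human, against 7 and 8 with TMM. Relative to the median gene, DAZL stayed between 0.69 and 0.70, PLCL2 at -0.01 and TBC1D5 between -0.08 and -0.07 over the 5 scalings. Only DAZL of the 3 therefore kept its direction relative to 0 under all of them. A lower level can come from fewer expressing cells or from less RNA per cell, and the fit on summed counts cannot tell these apart.

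**Figure D2:**
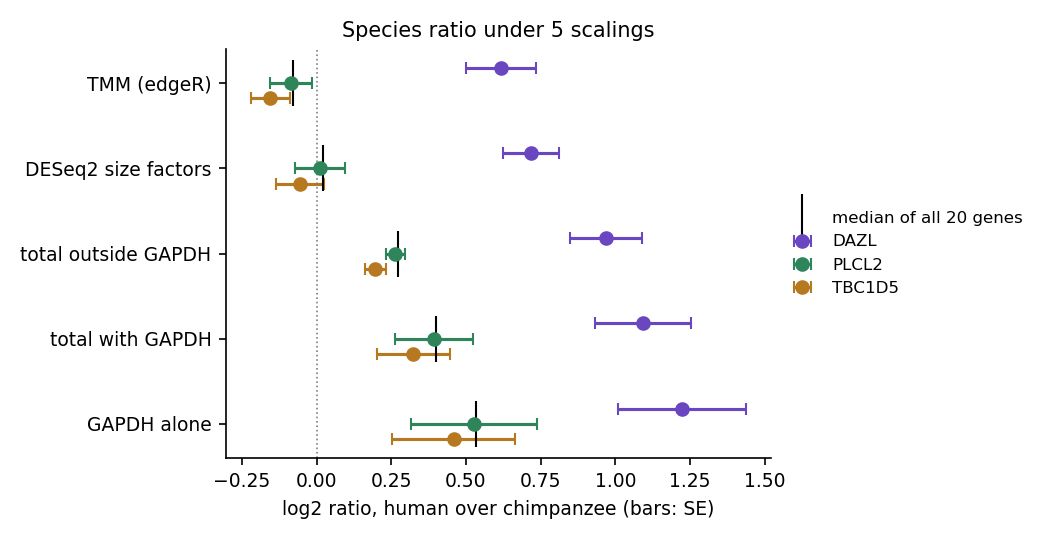
Log2 ratio of human over chimpanzee (horizontal axis) for the 3 genes under 5 scalings, with SE bars and the median of all 20 genes as a black tick. DAZL lies to the right of the tick throughout, at 0.62 with TMM, while PLCL2 stays on the tick and TBC1D5 just left of it, and both cross 0 as the scaling changes.

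Ratios between the neighbours within a library do not depend on the scaling. DAZL had 0.179 and 0.158 UMIs per TBC1D5 UMI in human 4 and human 5, and 0.0918 and 0.105 in chimpanzee 3 and chimpanzee 4. The ratio was higher in human by 0.78 ± 0.13 (log2, SE from the 4 libraries). PLCL2 had 0.558 and 0.547 UMIs per TBC1D5 UMI in human and 0.535 and 0.519 in chimpanzee libraries, a log2 difference of 0.07 ± 0.03. DAZL per PLCL2 was 0.320 and 0.289 in human and 0.171 and 0.203 in chimpanzee libraries. Without shared barcodes DAZL per TBC1D5 was 0.179, 0.157, 0.0933 and 0.103. PLCL2 and TBC1D5 therefore kept almost the same proportion across species, and DAZL changed against both. Other pairs of panel genes were not compared this way, so whether this is particular to the neighbours was not tested. In the TMM fit, NRSN2 (-0.07) and PSMA6 (-0.05), from other chromosomes, also lay close to PLCL2 (-0.09). In that fit DAZL ranked 12 of 20 by size, and 75% of the genes passed. With 2 libraries against 2 the smallest p of a two-sided exact permutation test is 0.33, which each neighbour ratio above gave. How well each probe matches the chimpanzee transcript was not analysed here, and a probe effect on a ratio between species cannot be told apart from a difference in RNA.

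Detection in single cells followed the levels once depth was made equal. Each cell was thinned to 50 UMIs outside GAPDH, and shallower cells were left out (577, 542, 93 and 263 in human 4, human 5, chimpanzee 3 and chimpanzee 4). At least 1 DAZL UMI was then present in 23.1% of cells of human 4, 20.7% of human 5, 10.7% of chimpanzee 3 and 12.6% of chimpanzee 4. PLCL2 was present in 53.6%, 54.0%, 45.4% and 45.5%, and TBC1D5 in 73.4%, 76.0%, 70.7% and 70.5%. For all 3 genes both human libraries lay above both chimpanzee libraries, as they did for 65% of the 20 genes. The human minus chimpanzee difference was 10.3 percentage points for DAZL, 8.35 for PLCL2 and 4.10 for TBC1D5 (two-sided exact permutation p = 0.33 each, the smallest possible). These shares carry the same denominator as the levels, so the PLCL2 and TBC1D5 directions are tied to the scaling described above. Without thinning, DAZL was present in 37.5%, 33.9%, 24.8% and 25.0% of cells, PLCL2 in 67.3%, 72.1%, 73.5% and 68.2%, and TBC1D5 in 83.2%, 88.2%, 90.8% and 88.0%. The PLCL2 and TBC1D5 groups overlapped in the unthinned shares.

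**Figure D3:**
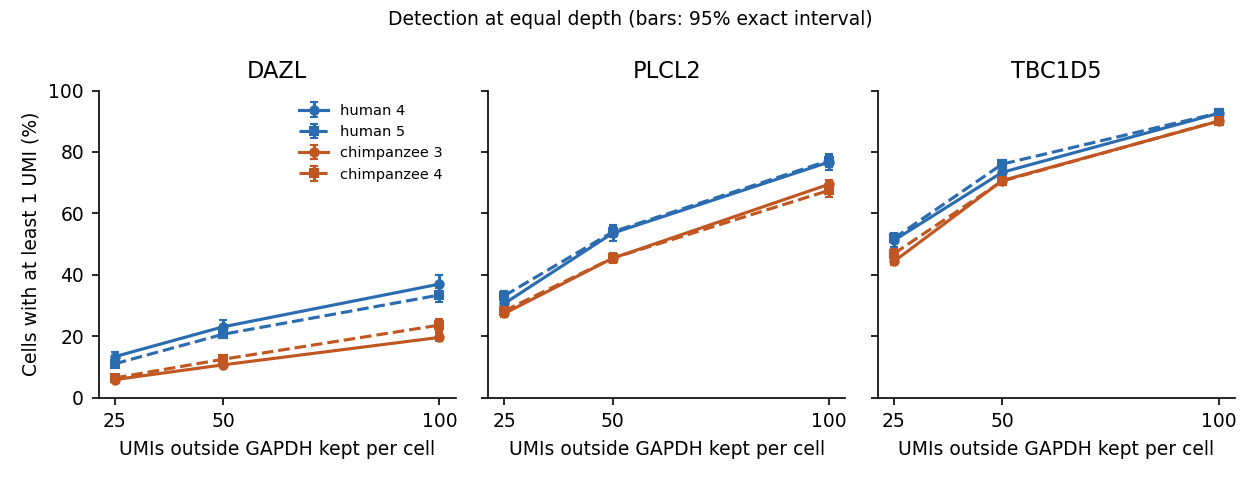
Percentage of cells with at least 1 UMI of each gene (vertical axis) after thinning every cell to 25, 50 or 100 UMIs outside GAPDH (horizontal axis), 1 line per library with exact 95% intervals. At 50 UMIs DAZL was present in 20.7% to 23.1% of human and 10.7% to 12.6% of chimpanzee cells, while the TBC1D5 lines lie between 70.5% and 76.0%.

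DAZL UMIs were spread thinly over many cells and not held by a few. In human 4, 793 cells (37.5%) had at least 1 DAZL UMI, where Poisson counts at the cells' own depths give 38.4%, and 73 cells had at least 3, or 3.45% against 3.14%. In chimpanzee 3, 24.8% of cells had at least 1, against 25.4%, and 1.22% had at least 3, against 0.759%. At least 3 were held by 2.36% of human 5 cells, against 1.81%, and by 0.837% of chimpanzee 4 cells, against 0.713%. Every library thus lay above the Poisson value for at least 3, in human 4 and chimpanzee 4 within counting error. At least 5 DAZL UMIs were seen in 3, 9, 3 and 1 cells of human 4, human 5, chimpanzee 3 and chimpanzee 4, and the highest cell had 12, in human 4. Free RNA and expression by the cell itself were not told apart, for lack of a cell type known to be without DAZL.

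Spread between cells was summarised as the squared coefficient of variation beyond Poisson counting. DAZL had 0.224 and 0.223 in the human libraries and 0.182 and 0.118 in the chimpanzee libraries, without overlap. From the lowest, its species mean ranked 15 of the 20 genes in human and 11 in chimpanzee neurons. Within chimpanzee 3 and chimpanzee 4 it ranked 14 and 7. The measure squares each cell's deviation, so single cells can move it. The highest cell of human 4 held 12 DAZL UMIs, and its part in the value of 0.224 was not tested. Of the 20 genes, 20% had a higher value in both human libraries and 30% a lower one, and of the 3 neighbours 1, DAZL, had a higher and 0 a lower one. PLCL2 had 0.164, 0.121, 0.156 and 0.232 in human 4, human 5, chimpanzee 3 and chimpanzee 4, so its groups overlapped. TBC1D5 was even from cell to cell, with 0.079, 0.050, 0.052 and 0.078, the second lowest of the 20 genes in human and the fifth lowest in chimpanzee neurons. ONECUT2, a homeobox transcription factor of neurons, had the highest mean spread in both species, at 0.604 and 2.31. In the human libraries PSMA6 reached 0.787 at its highest, against 0.689 for ONECUT2.

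Levels moved modestly with the depth of the cell. From the shallowest to the deepest of 4 equal groups of cells, DAZL went from 5.34 to 4.76 per 1000 in human 4 and from 5.39 to 4.45 in human 5. In chimpanzee 3 it went from 2.25 to 2.30 and in chimpanzee 4 from 2.90 to 2.71. In the same order of libraries, TBC1D5 went from 30.7 to 27.6, 30.9 to 28.8, 25.2 to 24.7 and 26.7 to 25.3. PLCL2 went from 15.7 to 16.0, 16.2 to 15.1, 13.6 to 13.5 and 14.1 to 13.5. The course was not always even, with DAZL at 6.04 in the second group of human 4. Along the threshold that removed cells from human 4, DAZL had 4.20 per 1000 in the 252 cells with 70% to 80% GAPDH and 5.98 in the 1265 cells with 80% to 90%. PLCL2 had 16.0 and 16.5, and TBC1D5 34.9 and 29.8, in the same cells.

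Correlations among the 3 neighbours over cells were near 0. With few UMIs per cell, such values cannot show that the genes vary independently. Pearson correlations of depth-adjusted residuals over the cells of a library were averaged over the 4 libraries, which hold 2113, 4612, 5823 and 4421 cells. They are a description only, since cells of a library share its preparation and genes share 1 total. DAZL with PLCL2 gave -0.009, DAZL with TBC1D5 -0.002 and PLCL2 with TBC1D5 0.006, and no library was beyond -0.024 or 0.019. Over all 190 pairs of genes the mean correlation ran from -0.370 to 0.335 with a median of -0.027.

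PLCL2 had the clearest partner. Its correlation with ONECUT2 was 0.188, 0.147, 0.158 and 0.174 in human 4, human 5, chimpanzee 3 and chimpanzee 4, with a mean of 0.167 that 2 of the 190 pairs exceeded. Its next partners were AKAP6, which anchors protein kinase A, with a mean of 0.096, and PLXNC1, a semaphorin receptor, with 0.073. The mean correlation with AKAP6 came mainly from chimpanzee, with 0.004 and -0.032 in the human and 0.192 and 0.220 in the chimpanzee libraries. These values keep AKAP6 in the total, which the AKAP6 split below leaves out. AKAP6 itself took 181 UMIs per 1000 in human and 76.0 in chimpanzee neurons, with a spread between cells of 0.085 and 0.515. Their part in the difference was not tested. The lowest correlations of PLCL2 were with NPAS3, a neuronal transcription factor (-0.148), and TENM3, a teneurin of synaptic adhesion (-0.135).

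The correlations of the other 2 members were weak, and in counts this sparse they are no more than a description. DAZL was highest with BAZ1A, a subunit of chromatin remodellers, at 0.049, then with PSMA6, a proteasome subunit, at 0.031 and DCTD, a deoxycytidylate deaminase, at 0.027. For BAZ1A the species means were 0.077 in human and 0.021 in chimpanzee libraries, where PSMA6 was higher at 0.040. DAZL was lowest with ONECUT2 (-0.070) and AKAP6 (-0.063). TBC1D5 reached 0.029 with NRSN2, a vesicle membrane protein of neurons, and 0.018 with GLI2, a transcription factor of Hedgehog signalling, at ranks 1 and 3. Without shared barcodes PLCL2 with ONECUT2 gave 0.178 and DAZL with BAZ1A 0.057.

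**Figure D4:**
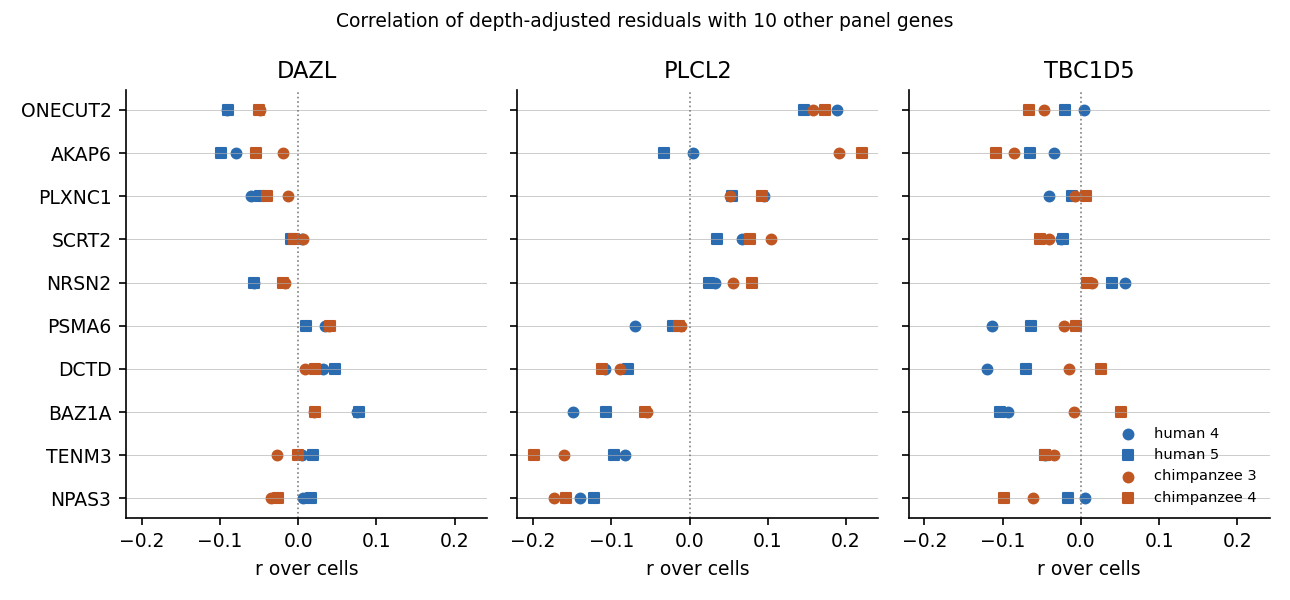
Correlation over cells of depth-adjusted residuals (horizontal axes) between each of the 3 genes and 10 other panel genes (rows), 1 point per library. PLCL2 with ONECUT2 lies between 0.147 and 0.188 in all 4 libraries, PLCL2 with AKAP6 splits by species, and the DAZL points lie between -0.099 and 0.078.

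The same correlation of PLCL2 with ONECUT2 is given next as levels. It is no further support, since the split below uses the same cells and genes. The PLCL2 and DAZL directions in the split are set by their correlations with ONECUT2, which is negative for DAZL in every library. Cells with at least 50 UMIs were sorted by ONECUT2 share, chosen after the correlations were seen, and the top 10% were set beside the rest with ONECUT2 taken out of the total. PLCL2 stood at 23.7 per 1000 in the top cells and 16.0 in the rest of human 4, and at 22.4 and 16.3 in human 5. In chimpanzee 3 it stood at 19.5 and 12.8, and in chimpanzee 4 at 21.6 and 12.5. The log2 ratios were 0.57, 0.46, 0.61 and 0.79. DAZL went the other way in all 4 libraries, with 3.86 against 5.41 in human 4, 3.93 against 4.90 in human 5, 1.81 against 2.36 in chimpanzee 3 and 2.19 against 2.81 in chimpanzee 4. TBC1D5 differed little, with log2 ratios of 0.11, 0.05, -0.02 and -0.05. Sorted by AKAP6, the PLCL2 log2 ratios were 0.26 and 0.18 in the human and 0.76 and 0.95 in the chimpanzee libraries. Here AKAP6 was taken out of the total, and PLCL2 was higher in the top cells of both species. In the human libraries the PLCL2 correlation with AKAP6, which keeps AKAP6 in the total, was near 0. Without shared barcodes the ONECUT2 split gave 0.60, 0.52, 0.64 and 0.80 for PLCL2.

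**Figure D5:**
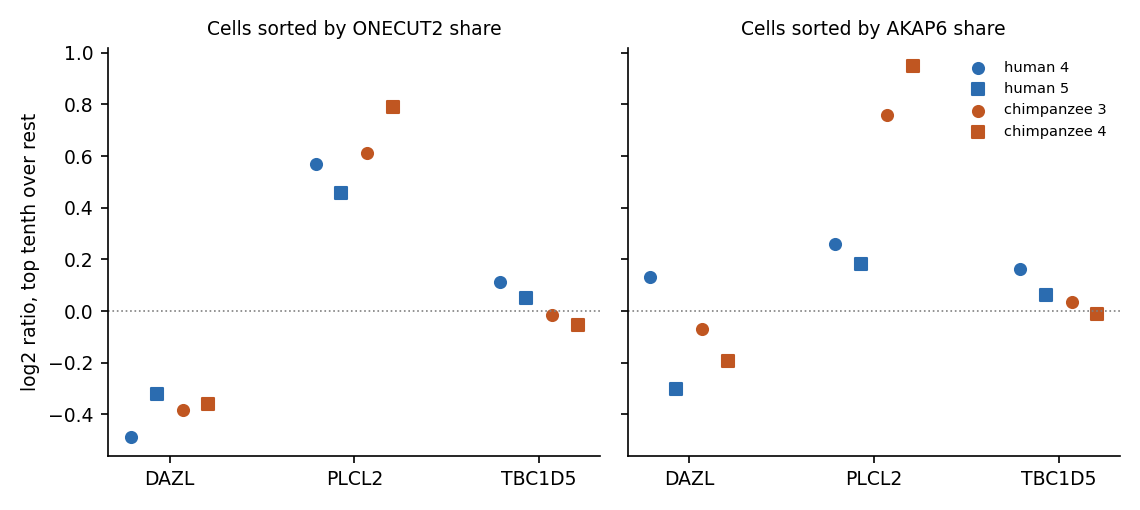
Log2 ratio of each gene's level in the top 10% of cells over the rest (vertical axis), for cells sorted by ONECUT2 share (left) or AKAP6 share (right), 1 point per library. With ONECUT2, PLCL2 lies between 0.46 and 0.79 and DAZL between -0.49 and -0.32; with AKAP6, PLCL2 lies at 0.18 and 0.26 in human and 0.76 and 0.95 in chimpanzee libraries.

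Guide RNAs were read through 28 barcode columns, 7 named Brainbar and 21 named SplintRbar. A map from barcode to target was not used here, so no barcode is called a control and each was set against the mean of all barcodes. A cell was assigned to a barcode with at least 5 UMIs that made up at least 70% of its guide UMIs, which gave 745, 831, 811 and 1003 cells in human 4, human 5, chimpanzee 3 and chimpanzee 4. DAZL had 4.36 per 1000 in assigned against 5.51 in other cells of human 4, and 4.37 against 4.67 in human 5. It had 2.39 against 2.76 in chimpanzee 4 and was nearly equal in chimpanzee 3, at 2.25 against 2.27. PLCL2 was lower in assigned cells of human 4 and human 5 (15.1 against 16.3 and 15.1 against 16.2). It was higher in those of chimpanzee 3 and chimpanzee 4 (13.6 against 13.2 and 13.8 against 13.2). The same split was not made for all panel genes. The median barcode class of a library held 13 DAZL UMIs in human and 6 in chimpanzee libraries. For TBC1D5 the medians were 91.5 and 71 UMIs. The median SE of a human barcode effect was 0.27 on the log2 scale for DAZL, 0.17 for PLCL2 and 0.15 for TBC1D5.

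In human neurons 0 of 75 pairs of barcode and member gene passed edgeR's test after adjustment over all 500 pairs, of which 2.8% passed. At an unadjusted p under 0.05 there were 7 member pairs (9.33%), against 13% of all pairs, and DESeq2 called 0 member pairs. DAZL had its smallest p with Brainbar7, at 7.58 per 1000 against 4.18 in other assigned cells of human 4 and 5.50 against 4.29 in human 5 (log2 0.58 ± 0.20, edgeR adjusted p = 0.117). In chimpanzee cells of that barcode it stood at 1.52 against 2.30 and at 2.98 against 2.37. PLCL2 had its smallest p with SplintRbar24, at 21.6 against 14.9 in human 4 and 20.2 against 15.0 in human 5 (log2 0.50 ± 0.20, edgeR adjusted p = 0.183).

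TBC1D5 had its smallest p with SplintRbar28. It stood at 40.5 against 28.1 per 1000 in 34 cells of human 4, 38.2 against 29.2 in 9 cells of human 5, 26.4 against 24.4 in 41 cells of chimpanzee 3 and 27.4 against 25.3 in 129 cells of chimpanzee 4. This barcode was picked by its p in human, so its human values are no independent support. The log2 difference was 0.37 ± 0.15 in human (edgeR adjusted p = 0.183) and 0.17 ± 0.12 in chimpanzee neurons (edgeR adjusted p = 0.999). The human difference passed without TMM (0.48, edgeR adjusted p = 0.0496) and without shared barcodes (0.50, edgeR adjusted p = 0.0461). It missed with DESeq2 (0.39, adjusted p = 0.0656) and with looser guide assignment (0.33, edgeR adjusted p = 0.108). It also missed with edgeR's newer default (0.37, adjusted p = 0.120) and with no GAPDH filter (0.37, edgeR adjusted p = 0.177). Under stricter assignment it was not among the member pairs with an unadjusted p under 0.05. Classes of at least 10 cells leave this barcode out in human. In the human SplintRbar28 cells 4 other genes were called lower, among them BAZ1A by -1.07 and NPAS3 by -0.48 (log2, edgeR). Their part in the TBC1D5 value was not tested.

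In chimpanzee neurons 0 of 72 member pairs passed, as did 0% of all 480 pairs, and 6 member pairs (8.33%) had an unadjusted p under 0.05, against 4.17% of all pairs. DESeq2 called 0 member pairs. TBC1D5 had its smallest p with Brainbar8, at 34.1 against 24.4 in chimpanzee 3 and 31.1 against 25.5 in chimpanzee 4 (log2 0.49 ± 0.13, edgeR adjusted p = 0.402). In human 4 and human 5 that barcode gave 20.5 against 28.9 and 29.1 against 29.3. PLCL2 had its smallest p with SplintRbar13, which rested on 9 cells of chimpanzee 4 at 31.5 against 13.6, while 16 cells of chimpanzee 3 gave 15.1 against 13.6 (log2 0.74 ± 0.26, edgeR adjusted p = 0.450). For DAZL, Brainbar3 had 0 UMIs among 1648 in 15 chimpanzee cells, which allows up to 1.82 per 1000, where all classes together had 2.33. The limit covers counting error only, and the class was singled out after its value was seen. That 0 distorts the chimpanzee DAZL fit against the mean of barcodes, 3 of the 6 unadjusted pairs among them. With classes of at least 10 cells, which drops it, 0 of 19 DAZL pairs had an unadjusted p under 0.05, and the smallest p, with SplintRbar14, belonged to a log2 difference of 0.63 ± 0.35 (edgeR adjusted p = 0.989).

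The difference between species in a barcode's effect was tested in 1 fit over both. Of 69 member pairs 0 passed, against 0.87% of 460 pairs, and 8 (11.6%) had an unadjusted p under 0.05, against 8.26% of all pairs. Of these 8, 3 are DAZL pairs that the 0 above distorts. DESeq2 called 0 member pairs there too, and so did edgeR with each library left out in turn, where 1 to 9 of all pairs passed (1 and 2 without human 4 and human 5, 9 and 6 without chimpanzee 3 and chimpanzee 4). The smallest edgeR adjusted p was 0.470 for PLCL2 with Brainbar7 (-0.58 ± 0.26) and 0.377 for TBC1D5 with Brainbar8 (-0.55 ± 0.21), each as human minus chimpanzee on the log2 scale.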

How the data were processed

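HyPR-seq was run on 11 libraries, and the 4 whose tables hold DAZL, PLCL2 and TBC1D5 were used. The deposited tables hold whole-number UMI counts with cells in rows and gene probes and guide barcodes in columns, per the file headers. Bowtie, SAMtools, UMI-tools, fastp and hg38 are named per the submitters' processing notes. For their versions and roles, and for how cell barcodes were kept, the entry is not given in the sources used here. Groups came from the labels' source line. The members and lists were chosen with earlier results of these data known.

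Cells with GAPDH above 80% of gene UMIs were left out. Counts summed per library were tested with edgeR 4.0.16 in R 4.3.3 (quasi-likelihood test, TMM, legacy=TRUE with a common dispersion because the panel has too few genes for the newer default), with Benjamini-Hochberg adjustment at 0.05 and a minimum of 10 UMIs per gene and library. Guide fits had library as a block, classes of at least 5 cells and genes with at least 50 UMIs. DESeq2 1.42.0 was an alternative. Both fits were run on simulated counts in which few genes changed, as many up as down. That setting does not test the scaling where most genes differ, as they did here between species. Spread, correlations and thinning used Python 3.11.15, numpy 2.4.6 and scipy 1.17.1. No doublet caller was run, and leaving out the deepest 5% of cells was an alternative. Counting intervals are exact (95%) and cover counting error only, as does the limit of 3 counts for a 0. They are Clopper-Pearson for cells and for levels per library, and Poisson for UMIs in groups of cells within a library.

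Named genes are the members, the 3 most correlated with each member and, per member and species, the barcode with the smallest p. For TBC1D5 only those at ranks 1 and 3 are named. The genes with the lowest correlations, and the ONECUT2 and AKAP6 splits, were picked after their values were seen. Alternatives covered the GAPDH filter, scaling, thinning depth, guide assignment, class size, the deepest cells and each library left out. Leaving out cells with shared barcodes was added after seeing the data.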

Additional observations from a re-analysis of the deposited data

Results flagged for a closer look

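The cells of human 4 left out for GAPDH above 80% also carried all 3 genes, in data that the comparisons do not use. Among their 50862 UMIs outside GAPDH, DAZL had 5.72 per 1000 (291 UMIs), PLCL2 16.5 (840 UMIs) and TBC1D5 30.0 (1527 UMIs). The kept cells of that library had 5.08, 15.9 and 28.5 per 1000. Of the 1712 cells left out, 51.9% had a barcode found in another library, and the part of this in their levels was not tested.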

How the results depend on the processing

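No paired analysis was possible because the labels give no replicate number that links a human to a chimpanzee library: all 4 are of screen replicate 2, and their numbers only name them. Leaving out a library in the guide fit of a species leaves no residual degrees of freedom, so this was not run there. In the interaction it gave 1 to 9 called pairs, an alternative added after seeing the data, with the lone library of a species assumed to vary like the others. With each library left out, the species count ran from 14 to 15 genes, the log2 ratio from 0.57 to 0.73 for DAZL, -0.11 to -0.01 for PLCL2 and -0.19 to -0.10 for TBC1D5, and the detection difference from 9.04 to 11.5, 8.14 to 8.56 and 2.77 to 5.44 percentage points. The DAZL ratio was 0.97 with totals, 1.09 with all gene UMIs and 1.22 with GAPDH. It was above 0 under all 15 alternatives and past the threshold in 13, the exceptions being each human library left out. PLCL2 turned to 0.26 with totals, 0.39 with all gene UMIs, 0.53 with GAPDH and 0.012 with DESeq2, and TBC1D5 to 0.20, 0.32 and 0.46 with the first 3 of these, which follows from the shift of all genes. TBC1D5 passed at -0.15 with no GAPDH filter and at -0.19 without human 5. Thinned to 25 UMIs, the detection differences were 6.05 for DAZL, 4.09 for PLCL2 and 5.93 for TBC1D5 points, and thinned to 100 they were 13.6 for DAZL and 2.58 for TBC1D5. Not thinned, they were -1.16 for PLCL2 and -3.73 for TBC1D5. For PLCL2 the difference was 8.01 points with no GAPDH filter and 7.71 without shared barcodes. The count of human guide pairs fell from 14 to 9 under stricter assignment and 8 with classes of at least 10 cells. In chimpanzee cells it was 1 with totals and 1 with DESeq2, and for the interaction it went from 4 to 0 under stricter assignment, 2 with classes of at least 10 cells and 2 with edgeR's newer default. The cause of these changes in detection and guide counts was not tested. The median barcode class of a library held 13 DAZL UMIs in human and 6 in chimpanzee libraries.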
